A study of Mus musculus with 6 samples.

Results

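The 9 genes described here encode the enzymes that build phosphatidylethanolamine and phosphatidylcholine, the main membrane phospholipids of mammalian cells. They were chosen by name, as Etnk1, Etnk2, Chka, Chkb, Pcyt2, Pcyt1a, Cept1, Selenoi and Pemt, out of 21911 protein-coding genes of GENCODE mouse release M21. For each gene, the H3K4me3 peaks within 1 kb of any annotated transcript start were collected from 6 deposited peak lists. This histone mark, H3 trimethylated on lysine 4, is found at the starts of genes that are transcribed or poised.

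The cells were STHdh cells, conditionally immortalised striatal progenitor cells of mouse, labelled as strain C57BL/6. Q7SST is the wild-type line (STHdhQ7) and Q111SST the mutant line (STHdhQ111, homozygous for knocked-in mutant huntingtin), each held for 24 hours in medium without serum and given vehicle. The other 4 lists came from the same mutant line, starved of serum for the same 24 hours, with 10 uM cyproheptadine, loxapine, diacylglycerol kinase inhibitor II (DKI) or meclizine. Each condition gave 1 list. The wild-type and mutant lines are separate cell lines, so between Q7SST and Q111SST an effect of the genotype and a difference between the lines cannot be told apart.

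A single list gives no spread between replicates, so no difference between lists was tested and all values below describe these 6 lists. The lists held between 30758 peaks (DKI) and 45564 peaks (Loxapine), and the depth behind them is unknown. Of 6 neural progenitor markers, between 3 (Cyproheptadine) and 5 had a peak at a start, with Vim and Notch1 marked in all 6 lists and Gsx2, a striatal progenitor factor, in 1. Of 6 neuron markers 1 or 2 were marked in each list. Syt1 was marked in all 6 lists, Ppp1r1b in 4, and Rbfox3, Drd1, Drd2 and Snap25 in none. Of 15 markers of astrocytes, oligodendrocytes, microglia, endothelium and liver, 3 were marked in each vehicle list and between 1 and 3 in each compound list. Among the astrocyte markers, Gfap was marked in 5 lists, Aldh1l1 in 4 and Aqp4 in none.

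Phosphatidylethanolamine and phosphatidylcholine are made by parallel branches of the Kennedy pathway. A kinase phosphorylates ethanolamine or choline, a cytidylyl transferase turns the product into CDP-ethanolamine or CDP-choline, and a transferase joins that head group to diacylglycerol. Phosphatidylethanolamine also arises in mitochondria by decarboxylation of phosphatidylserine, and Pemt methylates it to phosphatidylcholine, mainly in liver. Pcyt2 has been reported as an enzyme target of meclizine, which is why its promoter is of interest beside that compound.

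The sequences upstream of the starts are shown first because H3K4me3 peaks lie on promoters rich in CpG dinucleotides, and the starts that carried a peak differed in this from those that did not. RefSeq promoter windows on GRCm38.p6 were at hand for 8 of the 9 genes, with 13 entries in all, and none was used for Pcyt2. Each line below gives the 250 bases before the start in the direction of the gene, with every CG dinucleotide in capitals. Etnk1 is shown because its start lay in a gap between peaks in 4 lists, Etnk2 because its peak was the weakest of the 9 in the DKI list, Chka because its peak was weaker in each compound list than in Q111SST, and Chkb because its peak was among the strongest. The marked start of Cept1 and the alternative starts of Cept1 and Pemt that had no peak are shown for contrast.
Etnk1, chr6:143166980-143167229, plus strand: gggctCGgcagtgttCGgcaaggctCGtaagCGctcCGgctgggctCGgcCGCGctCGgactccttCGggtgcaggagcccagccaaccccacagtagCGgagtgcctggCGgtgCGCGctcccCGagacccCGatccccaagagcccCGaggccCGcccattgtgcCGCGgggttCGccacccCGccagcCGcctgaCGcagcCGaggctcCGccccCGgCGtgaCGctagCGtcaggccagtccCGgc
Etnk2, chr1:133363322-133363571, plus strand: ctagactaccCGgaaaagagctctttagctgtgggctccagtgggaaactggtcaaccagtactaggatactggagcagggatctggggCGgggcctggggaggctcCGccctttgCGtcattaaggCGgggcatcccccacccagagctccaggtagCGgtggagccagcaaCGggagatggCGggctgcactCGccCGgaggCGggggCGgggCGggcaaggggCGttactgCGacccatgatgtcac
Chka, chr19:3851523-3851772, plus strand: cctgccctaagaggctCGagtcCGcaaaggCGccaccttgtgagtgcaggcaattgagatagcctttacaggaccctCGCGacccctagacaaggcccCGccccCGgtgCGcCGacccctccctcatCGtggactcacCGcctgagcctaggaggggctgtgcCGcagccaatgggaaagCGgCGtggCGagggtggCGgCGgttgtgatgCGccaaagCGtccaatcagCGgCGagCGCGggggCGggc
Chkb, chr15:89429928-89430177, minus strand: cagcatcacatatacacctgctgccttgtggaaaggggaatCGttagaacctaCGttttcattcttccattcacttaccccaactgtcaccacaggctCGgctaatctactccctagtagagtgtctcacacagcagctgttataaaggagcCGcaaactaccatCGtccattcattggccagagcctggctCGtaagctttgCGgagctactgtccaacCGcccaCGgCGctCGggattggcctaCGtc
Cept1 marked start, chr3:106547803-106548052, minus strand: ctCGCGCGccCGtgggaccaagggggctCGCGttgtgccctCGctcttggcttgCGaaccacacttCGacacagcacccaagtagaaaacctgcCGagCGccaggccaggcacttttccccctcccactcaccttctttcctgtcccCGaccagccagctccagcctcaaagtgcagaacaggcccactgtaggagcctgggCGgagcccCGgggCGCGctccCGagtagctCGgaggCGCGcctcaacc
Cept1 alternative start, chr3:106543147-106543396, minus strand: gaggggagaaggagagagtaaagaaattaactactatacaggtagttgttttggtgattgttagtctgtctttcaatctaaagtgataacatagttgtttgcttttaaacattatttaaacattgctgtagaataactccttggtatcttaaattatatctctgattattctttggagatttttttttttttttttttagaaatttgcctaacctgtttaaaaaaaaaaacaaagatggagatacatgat
Pemt alternative start, chr11:60040189-60040438, minus strand: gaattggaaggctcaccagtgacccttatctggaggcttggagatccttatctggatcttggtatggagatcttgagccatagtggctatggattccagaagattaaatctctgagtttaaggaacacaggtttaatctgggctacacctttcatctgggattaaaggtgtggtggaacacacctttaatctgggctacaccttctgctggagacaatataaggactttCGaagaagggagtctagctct
Pemt downstream alternative start, chr11:60037006-60037255, minus strand: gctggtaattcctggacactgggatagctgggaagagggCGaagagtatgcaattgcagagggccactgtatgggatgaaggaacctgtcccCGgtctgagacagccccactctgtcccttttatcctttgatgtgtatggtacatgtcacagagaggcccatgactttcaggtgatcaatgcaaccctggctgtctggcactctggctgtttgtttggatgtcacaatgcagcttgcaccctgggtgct

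The 10 entries within 1 kb of a peak in all 6 lists held between 12 CG dinucleotides (Chkb) and 31 (Etnk1) in these 250 bases. The 3 entries without a peak, the alternative starts of Cept1 and Pemt, held 0, 1 and 2, and they lay between 3279 and 8805 bp from the nearest peak in the 6 lists. Entries of Pcyt1a overlap each other, as do both marked entries of Cept1, so they share sequence. Over all 32851 RefSeq entries the median was 16 CG dinucleotides for the 14213 starts within 1 kb of a Q111SST peak and 3 for the other 18638. The 10 marked entries thus all lay above the lower of these medians and the 3 unmarked entries below it. Marked entries of Chkb (12), Pcyt1a (14) and Etnk2 (15) lay below the median of 16. The ratio of CG dinucleotides found to those that the base composition gives was 0.58 to 0.95 in the 10 marked entries, and between 0 and 0.12 in the 3 others.

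Both strands of the same 250 bases were searched for 6 motifs, with overlapping matches each counted and overlap between motifs not removed. The GC box (GGGCGG), bound by Sp1 and related factors, was found in 9 of the 10 marked entries and in 32.7% of all entries, or 58.1% of those near a Q111SST peak. Etnk2 held 4 matches and Selenoi 3. The CCAAT box (CCAAT) was found upstream of Chka (2 matches), Chkb (2), Selenoi (1) and the first alternative start of Pemt (1). Its shares were 33.8% of all entries and 35.1% of those near a Q111SST peak. The TATA box (TATAAA) was found only upstream of Chkb among the 13 entries, against 12.4% of all and 6.33% of those near a Q111SST peak. The E-box (CACGTG) and the cAMP response site (TGACGT) had no match in the 13 entries. They were held by 6.02% and 6.47% of all entries, and by 8.11% and 9.95% of those near a Q111SST peak. The Ets site (CCGGAAG) occurred in 2 overlapping entries of Pcyt1a, in 6.91% of all entries and in 13.2% of those near a Q111SST peak.

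All 9 genes had a peak at a start in each of the 6 lists. The share of all protein-coding genes so marked was 59.9% in Q7SST, 58.4% in Q111SST, 55.4% in Cyproheptadine, 58.1% in Loxapine, 55.8% in DKI and 58.6% in Meclizine, and 11713 genes (53.5%) were marked in all 6. None of the 9 was gained or lost against Q111SST. Of all genes, the share gained against Q111SST was 3.6% in Q7SST, 0.306% in Cyproheptadine, 1.01% in Loxapine, 0.269% in DKI and 1.02% in Meclizine. The share lost was 2.08%, 3.33%, 1.24%, 2.88% and 0.799% in the same order. With so few genes gained or lost, 0 of 9 sits near the share over all genes.

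The 9 genes have 74 distinct annotated transcript starts, of which 49 lay within 1 kb of a peak in all 6 lists, 4 in some lists and 21 in none. The 21 included 6 starts of Pemt, 6 of Pcyt2, 3 of Etnk2, 2 of Chkb, 2 of Selenoi, 1 of Pcyt1a and 1 of Chka. All 7 starts of Cept1 and all 3 of Etnk1 in this annotation were near a peak in every list. The 4 starts marked in some lists all belonged to Chka.

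Strength is the percentile of a gene's strongest peak among all peaks of its own list, ranked by the authors' score, and a difference of 10 percentile points or more is counted below. The score's scale is not stated, and a list with fewer peaks places the same promoter at a lower percentile if the weakest peaks are the ones missing. In bulk chromatin, fewer marked cells and less mark per cell cannot be told apart. The median strength of the 9 genes was 85.3 in Q7SST, 87.3 in Q111SST, 89.9 in Cyproheptadine, 89.0 in Loxapine, 76.3 in DKI and 87.4 in Meclizine. The median over all marked genes was 80.4, 82.6, 79.5, 83.0, 76.3 and 80.4 in the same order, so the 9 genes lay above it in 5 lists and level with it in DKI.

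**Figure D1:**
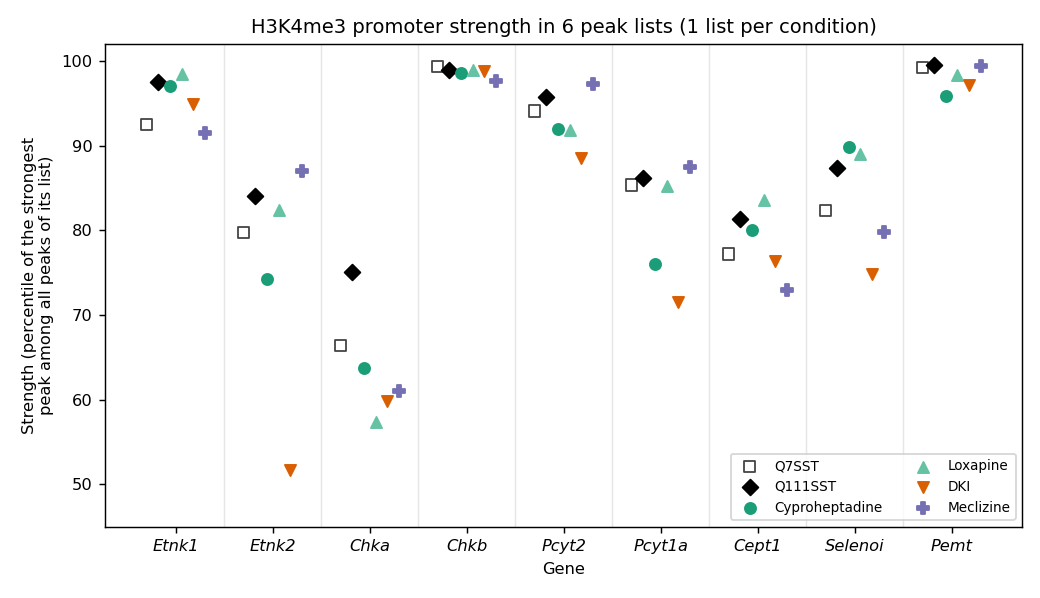
Strength of the H3K4me3 peak at each of the 9 genes (y axis, percentile among all peaks of the list) in each of the 6 lists (symbols), 1 value per list. Chkb stays between 97.6 and 99.3 in all lists, whereas Etnk2 spans 51.7 (DKI) to 87.0 (Meclizine) and Chka is highest in Q111SST at 75.1.

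Among the kinases, Chkb (chr15:89426360-89429908, minus strand), which phosphorylates choline and is the isoform linked to muscle mitochondria, had one of the strongest promoters of the set. Its strength was 99.3 in Q7SST, 99.0 in Q111SST, 98.6 in Cyproheptadine, 98.9 in Loxapine, 98.9 in DKI and 97.6 in Meclizine. The 6 values span 1.71 points, the smallest range of the 9 genes. Near the top of a list a percentile can move little, and the scores ran from 170 (Cyproheptadine) to 246 (Q7SST). The narrow range therefore does not show a constant mark. Its peak, 1860 bp wide in Q111SST, ran from 755 bp upstream to 1104 bp downstream of the 5′ end. It also covered a start of C730034F03Rik on the opposite strand, 319 bp from the 5′ end of Chkb, and of Gm44502 on the same strand, 212 bp away, so the mark cannot be assigned to Chkb alone.

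Chka (chr19:3851773-3894369, plus strand), the other choline kinase, had the weakest promoter of the 9 genes in every list but DKI. Its strength was 66.4 in Q7SST, 75.1 in Q111SST, 63.7 in Cyproheptadine, 57.3 in Loxapine, 59.9 in DKI and 61.0 in Meclizine, with scores of 77, 89, 57, 55, 58 and 72. By this measure Q111SST held the highest value and all 4 compound lists lay below both vehicle lists. The difference from Q111SST was -11.3 points in Cyproheptadine, -17.7 in Loxapine, -15.2 in DKI and -14.1 in Meclizine. Of all genes marked in both lists, 22.0%, 2.96%, 24.6% and 4.36% had differences as low or lower, so only Loxapine and Meclizine place Chka in the lower tail.

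These differences at Chka depend on how strength is measured. The main peak was 2307 bp wide in Q7SST and 2169 bp in Q111SST, but 2782 bp in Cyproheptadine, 2857 bp in Loxapine, 2905 bp in DKI and 3025 bp in Meclizine. It reached 1565 and 1613 bp downstream of the 5′ end in the vehicle lists and 2249 to 2365 bp in the compound lists. When score was summed over peak length and ranked among marked promoters, Chka was higher than in Q111SST by 13.9 points in Cyproheptadine, 21.6 in DKI and 5.62 in Meclizine, and lower in Loxapine (-6.21) and Q7SST (-5.45). Cyproheptadine (56.65), DKI (64.35) and Meclizine (48.34) then lay above both vehicle lists, Q7SST (37.28) and Q111SST (42.73). Ranked among marked promoters by score alone, the differences were -9.78 in Cyproheptadine and -7.83 in DKI, and with lists of equal size -6.99 and -7.35, all short of 10 points. Among marked promoters DKI (25.6) also lay above Q7SST (24.84). Other choices enlarged the differences, to -28.8 in Cyproheptadine, -33.9 in Loxapine and -28.1 in DKI with scores at or above the pooled median, and to -30.4 in Loxapine with lists of equal size. In Q7SST the difference was -8.67, or -10.6 with scores at or above the pooled median. Wider and lower peaks thus occurred together at this gene.

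Chka also had a weak separate peak more than 21 kb into the gene, near internal starts. It lay within 1 kb of 1 of these starts in Q111SST and Meclizine and of 4 in Loxapine. It was present in Q111SST (score 11), Loxapine (score 19) and Meclizine (score 27), and not in the other lists. The lowest score in each list was 10, so the peak in Q111SST lay at the lower limit of what was listed. An antisense gene, Gm16066, has a start 646 bp from the 5′ end of Chka under the main peak in all 6 lists.

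Etnk1 (chr6:143167221-143232307, plus strand), an ethanolamine kinase, had a strong promoter whose shape differed between lists. Its strength was 92.5 in Q7SST, 97.5 in Q111SST, 97.0 in Cyproheptadine, 98.5 in Loxapine, 94.9 in DKI and 91.5 in Meclizine. Q7SST and Meclizine held the lowest values, at -5.04 and -6.04 points from Q111SST, and in the same 2 lists the mark was a single peak over the 5′ end, 2372 and 2786 bp wide.

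In the other 4 lists the 5′ end of Etnk1 lay in a gap between a weak upstream peak and a strong downstream peak. In Q111SST the upstream peak (score 21) ended 242 bp before the 5′ end and the downstream peak (score 189) began 593 bp after it, which leaves a gap of 834 bp. The gap was 1133 bp in Cyproheptadine, 996 bp in Loxapine and 964 bp in DKI. The 250 bases printed above for Etnk1, with 31 CG dinucleotides, sit wholly in this gap in all 4 lists. A 5′ end between 2 peaks was found at 4.19% of genes with a peak near the 5′ end in Q7SST, 4.34% in Q111SST, 6.5% in Cyproheptadine, 6.55% in Loxapine, 5.82% in DKI and 3.41% in Meclizine.

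None of the other 8 genes was split in this way in any list. Of 10791 genes with a peak near the 5′ end in all 6 lists, 497 were split in Q111SST, 189 of those were not split in Meclizine, and 23 were split in exactly the 4 lists in which Etnk1 was. The share of split genes with a gap as wide as that of Etnk1 or wider was 86.2% in Q111SST, 22.7% in Cyproheptadine, 43.3% in Loxapine and 45.7% in DKI. Because score was taken from the strongest peak, the strength of Etnk1 refers to the downstream peak in 4 lists and to the joined peak in Q7SST and Meclizine. Among marked promoters the differences from Q111SST were -12.6 points in Q7SST and -15.5 in Meclizine, the latter -10.04 with scores at or above the pooled median. By length-weighted score they were 13.1 points in Q7SST and 17.7 in Meclizine, opposite in sign to those by peak score.

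Etnk2 (chr1:133363572-133380336, plus strand), the other ethanolamine kinase, varied the most of the 9 genes in strength. By score the range of Pemt (133) was wider than that of Etnk2 (98). Its strength was 79.8 in Q7SST, 84.0 in Q111SST, 74.3 in Cyproheptadine, 82.4 in Loxapine, 51.7 in DKI and 87.0 in Meclizine. The score was 116 in Q111SST, 48 in DKI and 146 in Meclizine. DKI stands apart as the lowest and Meclizine is the highest. The difference of DKI from Q111SST was -32.3 points, and 3.5% of the 12158 genes marked in both lists had a difference as low or lower. Among marked promoters of each list it was -35.9 points and with scores at or above the pooled median of 47, just under the score of this peak, -63.5, but by length-weighted score it was -4.54, from percentile 20.0 in Q111SST to 15.5 in DKI.

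The peak of Etnk2 was not narrower in DKI, at 1133 bp against 983 bp in Q111SST, but it lay further upstream. It ran from 780 bp before to 352 bp after the 5′ end in DKI, and from 386 bp before to 596 bp after it in Q111SST. This was not particular to DKI, since in Loxapine, at a strength of 82.4, it ran from 634 bp before to 368 bp after. In Cyproheptadine it ended 410 bp after the 5′ end. Cyproheptadine gave -9.71 points, but -24.0 with scores at or above the pooled median, -13.7 among marked promoters and -3.91 by length-weighted score. Meclizine gave 2.97 points, but 12.7 among marked promoters and 10.4 with scores at or above the pooled median. Of the gene's 5 starts, 3 lay 1760 to 3715 bp downstream of the 5′ end and were over 1 kb from a peak in every list.

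**Figure D2:**
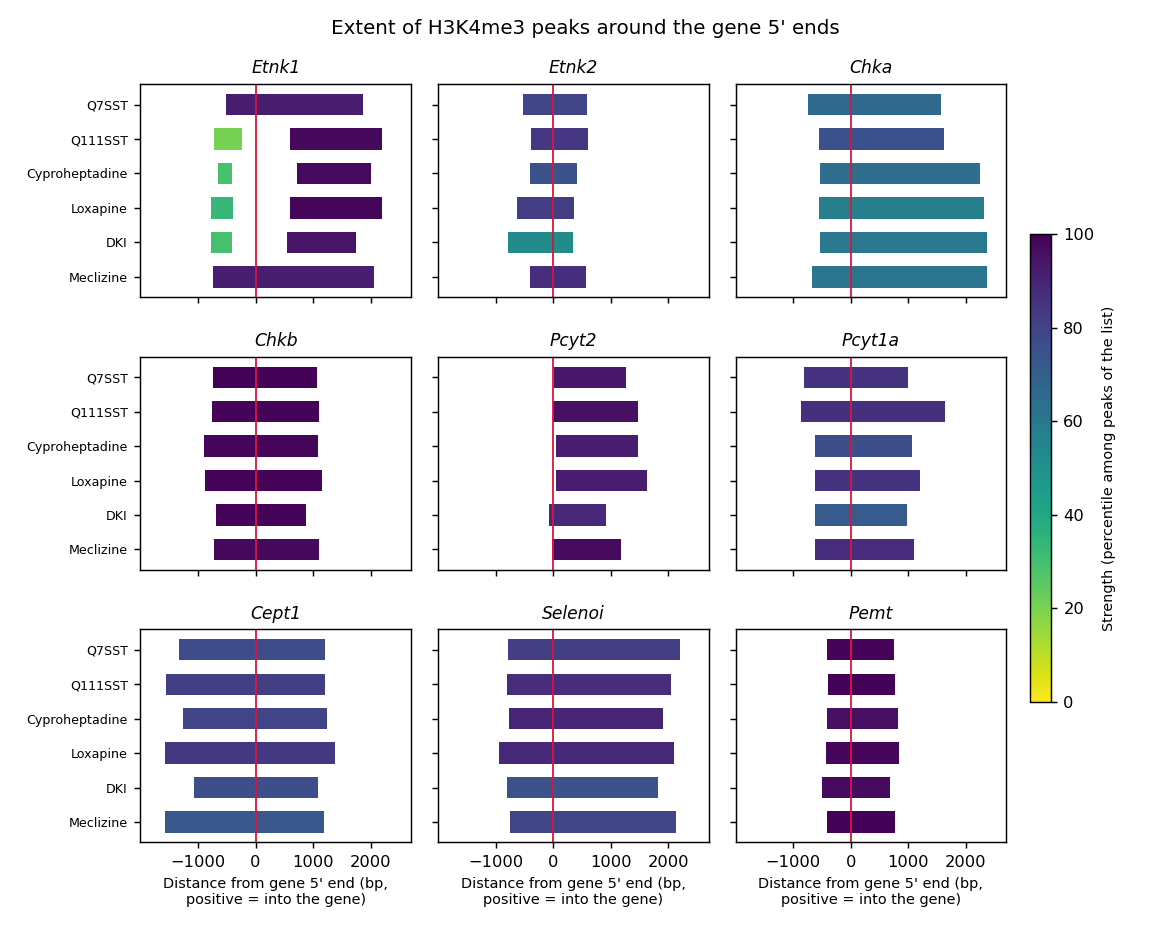
Extent of the H3K4me3 peaks at the 9 genes (bars, 1 row per list) by distance in bp from the gene's 5′ end (red line, positive into the gene), with colour giving strength as a percentile among the peaks of the list. Etnk1 has a gap at its 5′ end in 4 lists and none in Q7SST and Meclizine, Pcyt2 is marked only from about its 5′ end onwards, and the weak internal peak of Chka lies off the axis.

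Of the enzymes that form the CDP intermediates, Pcyt2 (chr11:120610087-120617936, minus strand), which makes CDP-ethanolamine, was strongest in the Meclizine list. Its strength was 94.1 in Q7SST, 95.7 in Q111SST, 91.9 in Cyproheptadine, 91.9 in Loxapine, 88.5 in DKI and 97.2 in Meclizine, with scores of 168, 171, 118, 146, 115 and 213. Meclizine and Q111SST were the highest and DKI the lowest, over a range of 8.71 points. The difference of Meclizine from Q111SST was 1.5 points, and 75.7% of genes had a difference as low or lower, so Pcyt2 stood above most genes in that comparison without reaching 10 points. That difference was 5.54 among marked promoters and 4.06 with scores at or above the pooled median, but -0.90 by length-weighted score. In DKI the difference was -7.2 points, beside a median of -6.57 over all genes, but it was -12.9 when ranked among marked promoters, -14.1 with scores at or above the pooled median and -20.2 by length-weighted score. In Loxapine it was -3.83, or -13.4 among marked promoters, and in Q7SST -1.63, or -12.45 by length-weighted score.

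The peak of Pcyt2 lay almost wholly inside the gene. It reached 5 bp upstream of the 5′ end in Q111SST, 68 bp in DKI and 13 bp in Meclizine, and began 15 bp downstream in Q7SST, 47 bp in Cyproheptadine and 46 bp in Loxapine. A mark that reached less than 100 bp upstream was found at 13.9% of genes in Q7SST, 14.2% in Q111SST, 18.3% in Cyproheptadine, 15.5% in Loxapine, 15.8% in DKI and 13.7% in Meclizine. It was found in all 6 lists at 667 of 10791 genes, and among the 9 genes Pcyt2 was the only such case in all 6. Between 75.4% and 92% of the peak was intronic.

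The peak of Pcyt2 was 1244 bp wide in Q7SST, 1472 bp in Q111SST, 1420 bp in Cyproheptadine, 1581 bp in Loxapine, 981 bp in DKI and 1199 bp in Meclizine. The strongest score of this gene, in Meclizine, thus came with a peak narrower than in Q111SST. The 3 protein-coding genes with the most similar strength over the 6 lists, by mean absolute difference, were Ift57 (0.664 points), Cfdp1 (0.847 points) and Ndufa3 (0.87 points). In the Meclizine list these lay between 94.5 (Ndufa3) and 96.1 (Cfdp1), below Pcyt2. In Q111SST they lay between 96.42 (Ift57 and Ndufa3) and 96.8 (Cfdp1), above Pcyt2 at 95.72. They were picked by these same values, so they show nothing particular to Pcyt2.

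Pcyt1a (chr16:32430921-32475070, plus strand), which makes CDP-choline and is the main regulated step of phosphatidylcholine synthesis, had strengths of 85.3 in Q7SST, 86.2 in Q111SST, 76.0 in Cyproheptadine, 85.2 in Loxapine, 71.5 in DKI and 87.4 in Meclizine. The values of Cyproheptadine and DKI lie below the other 4, at -10.2 and -14.7 points from Q111SST. These also were the lists with the fewest peaks, and 25.1% and 25.6% of all genes had differences as low or lower. In DKI the difference passed 10 points in all 10 settings, the main one included, between -33.6 and -10.4. In Cyproheptadine it passed 10 points in 9 of the 10 and fell short with lists of equal size (-8.22). It lay there between -34.8 and -16.5 by length-weighted score, with scores at or above the pooled median and among marked promoters. Settings that changed only the window, the starts or the merging of peaks kept the same single peak. They repeated nearly the main value in both lists and add no separate support. By length-weighted score Pcyt1a was also lower than in Q111SST by over 10 points in Loxapine (-26.4), Q7SST (-21.6) and Meclizine (-19.4). Its peak was widest in Q111SST, at 2497 bp against 1612 to 1830 bp in the other 5 lists.

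Of the enzymes that transfer the head group, Cept1 (chr3:106502260-106547802, minus strand), which uses both CDP-choline and CDP-ethanolamine, had strengths of 77.2 in Q7SST, 81.3 in Q111SST, 80.0 in Cyproheptadine, 83.6 in Loxapine, 76.3 in DKI and 72.9 in Meclizine. Meclizine was the lowest, at -8.36 points from Q111SST (14.2% of genes as low or lower), or -11.9 points when ranked among marked promoters. The 5′ end of Cept1 lies 4 bp from a start of Dram2 on the opposite strand, and 8 starts of Dram2 were under the peak, so the mark cannot be assigned to Cept1 alone. This peak reached furthest upstream of the 9, from 1073 bp (DKI) to 1570 bp (Loxapine), over the Dram2 side. The alternative RefSeq start of Cept1 printed above, without a CG dinucleotide, was 3279 to 3574 bp from the nearest peak.

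Selenoi (chr5:30232581-30272427, plus strand), the selenoprotein that joins CDP-ethanolamine to diacylglycerol, had strengths of 82.4 in Q7SST, 87.3 in Q111SST, 89.9 in Cyproheptadine, 89.0 in Loxapine, 74.8 in DKI and 79.8 in Meclizine. Cyproheptadine and Loxapine lay above Q111SST, and Meclizine and DKI below it. The difference was -12.5 points in DKI (31.6% of genes as low or lower) and -7.52 in Meclizine (17.0%). Ranked among marked promoters it was 11.7 points in Cyproheptadine, -15.0 in DKI and -14.1 in Meclizine. In DKI it fell short of 10 points with lists of equal size (-8.49) and by length-weighted score (-8.44), and was -23.9 with scores at or above the pooled median. Its peak was 2621 to 3037 bp wide, and exons of annotated transcripts made up 68.9% to 72.9% of it.

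Pemt (chr11:59970614-60046489, minus strand), which methylates phosphatidylethanolamine, had strengths of 99.2 in Q7SST, 99.5 in Q111SST, 95.9 in Cyproheptadine, 98.3 in Loxapine, 97.2 in DKI and 99.4 in Meclizine. It ranked first or second of the 9 genes in 4 lists, and the lowest value was in Cyproheptadine. The scores were 239, 241, 139, 205, 165 and 272. The peak was narrow and stable, between 1161 and 1260 bp, and covered 4 starts within 12 bp of the 5′ end. The 6 starts further into the gene lay over 5 kb from any peak in every list, among them those whose upstream sequences hold 1 and 2 CG dinucleotides. Of 3 markers of liver, where Pemt is best known, Alb and Cyp2e1 had no peak in any list and Apoa1 had one in Q7SST alone.

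**Figure D3:**
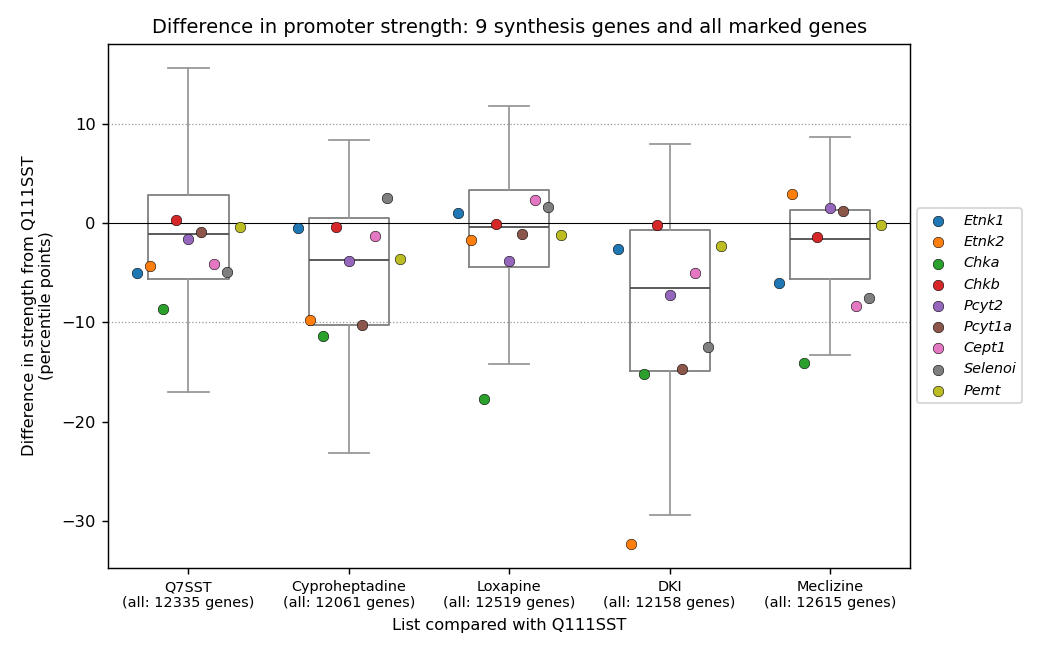
Difference in strength from Q111SST (y axis, percentile points) for the 9 genes (coloured points) in each of the other 5 lists, over boxes that give the median and quartiles of all genes marked in both lists, with whiskers at their 5th and 95th percentiles. Chka in Loxapine and Meclizine and Etnk2 in DKI lie below the whiskers, and no gene of the 9 reaches 10 points above Q111SST (dotted lines).

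All 5 comparisons share the Q111SST list, so they are not independent of each other. In Q7SST 0 of 9 genes were lower by 10 points or more, against 13% of all genes, and the median difference was -4.09 points against -1.04. In Cyproheptadine 2 of 9 were lower (Pcyt1a and Chka), against 25.9%, with medians of -3.65 and -3.74. In Loxapine 1 of 9 was lower (Chka), against 9.41%, with medians of -1.03 and -0.35.

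In DKI 4 of 9 genes were lower by 10 points or more (Etnk2, Chka, Pcyt1a and Selenoi), against 38.8% of all genes, with medians of -7.2 and -6.57. In Meclizine 1 of 9 was lower (Chka), against 10%, with medians of -1.34 and -1.54. None of the 9 was higher by 10 points or more in any list, against 8.85% of all genes in Q7SST, 3.48% in Cyproheptadine, 7.1% in Loxapine, 3.55% in DKI and 4.18% in Meclizine. The genes below Q111SST by any amount numbered 8 of 9 in Q7SST, 8 in Cyproheptadine, 6 in Loxapine, 9 in DKI and 6 in Meclizine. Over all genes the median difference was also below 0 in each comparison, and in DKI the upper quartile was -0.65. In DKI Cept1 and Chkb were above Q111SST with lists of equal size (0.89 and 0.19) and among marked promoters (3.64 and 0.41).

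Peak width was compared in the same way. In DKI 2 of 9 genes were narrower by 1.5-fold or more than in Q111SST, Pcyt2 (ratio 0.666) and Pcyt1a (ratio 0.646), against 19.6% of all genes. In the other comparisons 0 of 9 were, against 6.4% in Q7SST, 16.3% in Cyproheptadine, 6.25% in Loxapine and 4.38% in Meclizine. None was wider by 1.5-fold or more, against 5.45% of all genes in Q7SST, 0.448% in Cyproheptadine, 2.02% in Loxapine, 0.674% in DKI and 2.37% in Meclizine.

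The surrounding pathway was described with 41 further genes for isozymes, phosphatidylserine conversion, diacylglycerol supply, head group uptake, lysophospholipid acylation, breakdown and the CDP-diacylglycerol branch. Of these, 34 were marked in all 6 lists, 2 in some and 5 in none. The 5 without a peak were Slc44a3, Slc44a4 and Slc44a5, of the choline transporter-like family, Etnppl, which breaks down phosphoethanolamine, and Chdh, which oxidises choline to betaine. Slc5a7, the choline transporter of cholinergic neurons, had a weak peak in Q7SST (strength 18.6) and Meclizine (24.9) only. Lpcat2, which reacylates lysophosphatidylcholine, had no peak in Q7SST or DKI and strengths of 64.2 in Q111SST, 37.9 in Cyproheptadine, 22.7 in Loxapine and 55.5 in Meclizine.

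The widest ranges of strength among the 41 genes were found at Flvcr2, Cds1, Lpcat2, Agpat2 and Lpcat4. Flvcr2, a choline transporter, had strengths of 78.0 in Q7SST, 59.6 in Q111SST, 22.0 in Cyproheptadine, 10.4 in Loxapine, 50.8 in DKI and 72.9 in Meclizine. Cds1, which makes CDP-diacylglycerol, had strengths of 54.7, 59.6, 29.0, 54.4, 9.61 and 57.3 in the same order. Flvcr2 was weakest in Loxapine and Cds1 in DKI. Agpat2, which makes phosphatidic acid, and Lpcat4, an acyltransferase, were also lowest in DKI, at 34.8 against 70.7 in Q111SST and at 33.5 against 69.3. These genes were picked for the widest range over these same lists, so a low extreme in some list was built in. Of all genes marked in both lists, 38.8% were lower than in Q111SST by 10 points or more in DKI, and 9.41% in Loxapine.

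Against Q111SST, 2 of 34 pathway genes marked in both lists were lower by 10 points or more in Q7SST and 4 higher. The counts were 7 lower and 1 higher of 35 in Cyproheptadine, 7 and 2 of 35 in Loxapine, 14 and 3 of 34 in DKI, and 3 and 1 of 35 in Meclizine, beside the shares over all genes given above. The median difference was 0.39 points in Q7SST, -1.93 in Cyproheptadine, -0.23 in Loxapine, -7.95 in DKI and -1.88 in Meclizine. The 3 genes higher in DKI, named here after their values were seen, were Ptdss1 and Ptdss2, which make phosphatidylserine from phosphatidylcholine and phosphatidylethanolamine, and Lpin3, which makes diacylglycerol. Ptdss1 lay at 98.9 in DKI against 85.9 in Q111SST, Ptdss2 at 95.3 against 84.3, and Lpin3 at 97.4 against 81.3.

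**Figure D4:**
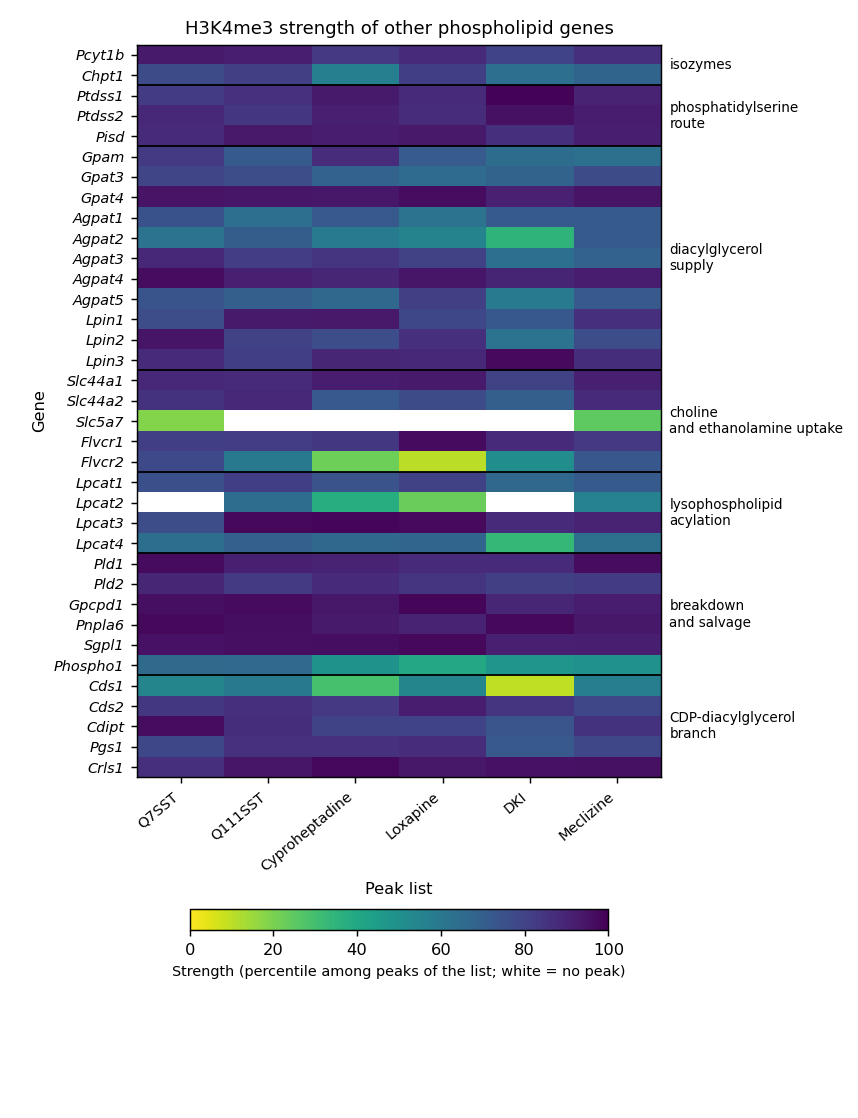
Strength of the H3K4me3 peak (colour, percentile among all peaks of the list, white where no peak was listed) for the 36 of 41 other phospholipid genes marked in at least 1 list (rows, grouped by role) in the 6 lists (columns). Flvcr2 is palest in Loxapine (10.4) and Cds1 in DKI (9.61), and Slc5a7 has a peak in Q7SST and Meclizine only.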

How the data were processed

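H3K4me3 ChIP-Seq was carried out on chromatin crosslinked with formaldehyde and digested with micrococcal nuclease, and libraries were read as single-end 50 bp reads. The submitters' processing notes name Trimmomatic 0.36, Bowtie2, SAMtools 1.3, MACS2 and mm10, without their settings. The authors deposited 1 peak list per condition, with chromosome, start, end and a score as a whole number from 10 upwards, whose scale is not stated. Treatment was described as done in replicate, and whether replicates were pooled is not stated.

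Groups were taken from the labels. No peak ran past the end of any of the 21 GRCm38 chromosomes compared. Coordinates count from 1. A gene counted as marked if any of its transcript starts was 1 kb or less from a peak (GENCODE M21, protein-coding genes, without the mitochondrial genome). Strength was the percentile of the strongest such peak among all peaks of its list, and width was summed over such peaks. Differences of 10 points or 1.5-fold were counted beside the share over all genes marked in both lists. Depth is unknown, and no test was made. The 9 genes, the 41 pathway genes and the markers were chosen with earlier results of these data known. All 9 genes were named, as were pathway genes marked in some or no lists, the 5 with the widest range, the 3 genes most like Pcyt2, and genes with a start under a peak of the 9. Counts were tested on simulated data. Python 3.11.15, numpy 2.4.6, pandas 2.3.3 and matplotlib 3.10.9 were used. Alternatives were a score of at least the pooled median of 47, lists of equal size (30758 peaks), windows of 0 and 5 kb, merging of peaks within 1 kb, the gene's 5′ end alone, percentiles among marked promoters, length-weighted score and the strongest peak alone for width. Starts of the GENCODE basic set were added after seeing the data.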

Additional observations from a re-analysis of the deposited data

How the results depend on the processing

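The counts of marked genes, 9 of 9 in each list, held under 7 alternatives except that a peak over the start itself left out Etnk1 in Q111SST, Cyproheptadine, Loxapine and DKI. The number of the 9 genes lower by 10 points or more than in Q111SST varied with the measure. In Q7SST it was 0 and became 1 with scores at or above the pooled median, 1 by percentile among marked promoters and 2 by length-weighted score. In Cyproheptadine it was 2 and became 3 with scores at or above the pooled median, 0 with lists of equal size and 1 by length-weighted score. In Loxapine it was 1 and became 2 by percentile among marked promoters. In DKI it was 4 and became 5 with scores at or above the pooled median, 2 with lists of equal size and 2 by length-weighted score. In Meclizine it was 1 and became 2 with scores at or above the pooled median and 4 by percentile among marked promoters. The number higher was 0 throughout and became 1 by length-weighted score in Q7SST, Cyproheptadine, DKI and Meclizine, 1 by percentile among marked promoters in Cyproheptadine and Meclizine, and 1 with scores at or above the pooled median in Meclizine. By the strongest peak alone, 1 gene was wider in Meclizine. Length-weighted score reversed Chka in Cyproheptadine (13.9 points), DKI (21.6) and Meclizine (5.62). The median difference of the 9 genes ranged from -4.09 to -1.06 in Q7SST, -8.29 to 1.37 in Cyproheptadine, -3.84 to 1.48 in Loxapine, -14.1 to -4.54 in DKI and -2.99 to -0.74 in Meclizine. The causes were not tested. Starts of the basic transcript set, chosen after seeing the data, moved none of the counts by over 1.5 times. No paired analysis was possible because the files hold 1 list for each condition, and no replicate could be left out for the same reason. The depth of each library is unknown and limits what a missing or weaker peak shows.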
